A study of Mus musculus with 24 samples.

Results

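Genes known from macrophages of injured tissue, 10 in number, were followed through the polyA RNA of 13 mouse hearts: Csf1r, Trem2, Tyrobp, Itgax, Cd68, Mpeg1, Gpnmb, Cd52, Lgals3 and Spp1. They were chosen by name, with earlier results of these data known, as 10 of the 23998 genes in the table of deposited expression values. All 10 passed the filter of a mean of at least 1 FPKM that left 12980 genes for testing. FPKM are fragments of RNA per kilobase of transcript, scaled to the mapped fragments of a library.

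All mice were of the CD1 strain background and carried a human MYL2 transgene, the gene of the regulatory light chain of cardiac myosin, in its normal form (wild type transgenics) or a mutated form (mutants). The field for genotype reads RLC-47K L6 for every sample, so the form of the transgene was taken from the sample names, and the promoter driving the transgene is not stated in these sources. The 4 groups were 3 wild type transgenic hearts with control virus (replicates 2, 3 and 4), 3 mutant hearts without virus (9, 10 and 11), 3 mutant hearts with control virus (1, 2 and 3) and 4 mutant hearts with AAV9 delivering M7.8L shRNA (5, 6, 7 and 8). The control virus was AAV9 that did not express this shRNA. Pups were injected at 3 days, and the hearts come from mice of 4 months. The animals are numbered one to a library, so p-values measure the spread between these hearts. Small RNA had been sequenced from 11 of the same 13 hearts.

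Csf1r encodes the receptor for macrophage colony-stimulating factor, on which the survival of most tissue macrophages depends. Macrophages at sites of injury, lipid loading or fibrosis take on a further programme, in which the lipid-sensing receptor Trem2 signals through its adaptor Tyrobp and in which Gpnmb, Lgals3 and Spp1 are typical transcripts. In bulk heart RNA, more cells of a type and more RNA of a gene in each cell cannot be told apart.

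One library stood apart. In shRNA replicate 8, 91.8% of the tested genes had a higher FPKM than in any of the 6 mutant hearts without shRNA, and its median log2 shift from the common level was 0.80, against -0.54 to 0.52 in the other 12 libraries. Values are therefore given as deposited and, where it matters, after aligning libraries on their median gene (aligned FPKM). By the Y-linked Ddx3y, the control virus mutants were all female, shRNA replicates 5, 6 and 7 were male and shRNA replicate 8 was female. The untreated mutants and the wild type hearts each had 2 males and 1 female. In the shRNA group, sex and the separation of replicate 8 thus cannot be told apart. Xist, not used for the call, was 37.5 to 124 FPKM in the females. In the males it was at most 0.965 FPKM, except for 8.31 in wild type replicate 3. Cardiomyocyte markers were abundant in every heart, and the sum of 10 of them was 86448 to 99056 aligned FPKM in wild type, 57072 to 65774 in the mutants without shRNA, 116666 to 129994 in shRNA replicates 5 to 7 and 60097 in replicate 8. The Myl2 row, which cannot separate human from mouse transcripts and so does not check the knockdown, ran from 10860 to 14425 FPKM in mutants without shRNA and from 21983 to 51823 FPKM in the shRNA group. Replicate 8 was the lowest of these 4, and after aligning it was at 12660 FPKM, inside the 12505 to 16641 of the mutants without shRNA.

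Promoter sequence in the RefSeq table (build GRCm38.p6, 250 bases before to 50 after a start) was found for 7 of the 10 genes, in 8 windows since Spp1 has 2 starts. The pattern TGANTCA, with any base at N, was searched for AP-1 and reads the same on both strands. It occurred in 4 of the 7 genes (Trem2, Cd68, Itgax and Gpnmb) and in 7.81% of all 32851 promoter windows. The matched letters were TGAGTCA in Cd68 and Itgax, TGACTCA in Gpnmb and TGAATCA in Trem2. The promoters of Trem2, Cd68 and Itgax are shown, 5′ to 3′ along the gene and up to the base before the start, because the motif lies upstream of the start in these genes. Capitals mark TGANTCA.

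Trem2 (chr17:48346151-48346400, plus strand): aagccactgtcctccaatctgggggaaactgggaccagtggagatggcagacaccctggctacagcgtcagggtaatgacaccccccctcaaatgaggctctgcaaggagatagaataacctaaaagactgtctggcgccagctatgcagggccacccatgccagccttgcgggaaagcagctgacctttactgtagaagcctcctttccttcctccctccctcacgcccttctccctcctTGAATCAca

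Cd68 (chr11:69666171-69666420, minus strand): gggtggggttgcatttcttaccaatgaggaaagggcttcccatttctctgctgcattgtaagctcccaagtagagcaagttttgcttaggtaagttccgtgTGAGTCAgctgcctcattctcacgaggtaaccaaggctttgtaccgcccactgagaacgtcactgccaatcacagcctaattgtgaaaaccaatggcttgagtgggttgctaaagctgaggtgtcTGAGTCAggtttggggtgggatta

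Itgax (chr7:128129300-128129549, plus strand): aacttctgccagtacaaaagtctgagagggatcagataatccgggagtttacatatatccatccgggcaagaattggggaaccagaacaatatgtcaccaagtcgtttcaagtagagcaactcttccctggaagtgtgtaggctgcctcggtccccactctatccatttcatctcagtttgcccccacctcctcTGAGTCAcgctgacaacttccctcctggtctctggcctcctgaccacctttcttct

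The motif began 9 bases before the start in Trem2, 56 before it in Itgax, and 149 and 24 before it in Cd68. In Gpnmb it began at base 9 of the transcript. The PU.1 core GAGGAA, searched on both strands, was present in windows of Spp1, Cd68 and Trem2 and in 28.3% of all windows. The E-boxes CACGTG and CATGTG were in none of the 8 windows, against 7.15% and 14.2% of all windows. These are matches of letters only.

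The mutant hearts differed from wild type transgenic hearts in 5 of the 10 genes, all in the same direction. Lgals3, Gpnmb, Cd52, Spp1 and Mpeg1 were higher with adjusted p under 0.05 (limma across all 12980 genes, Benjamini-Hochberg) both in mutants with control virus and in untreated mutants. The other 5, which comprise the receptors Csf1r and Trem2, the adaptor Tyrobp, the integrin Itgax and the lysosomal Cd68, did not pass in either comparison as deposited. After aligning, Csf1r and Tyrobp passed as higher in both. Both comparisons use the same 3 wild type hearts, all with control virus. Untreated mutants therefore differ from them in virus as well as in transgene, and these cannot be told apart there.

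Of the secreted and membrane proteins of the programme, Lgals3 encodes galectin 3, a carbohydrate-binding lectin. Its FPKM in wild type hearts was 2.22, 3.34 and 3.73. It was 27.8, 77.7 and 57.4 in untreated mutants (replicates 9, 10 and 11) and 74.9, 180 and 47.4 in mutants with control virus (replicates 1, 2 and 3). With shRNA, replicates 5, 6 and 7 had 2.66, 3.28 and 2.46 FPKM and replicate 8 had 96.3. The 6 mutant hearts without shRNA thus lay above all wild type hearts and above shRNA replicates 5 to 7, while replicate 8 lay among the mutants. On the log2(FPKM + 1) scale Lgals3 was 4.43 ± 0.88 (SE) higher with control virus than in wild type, 21.6-fold (adjusted p = 0.00840, limma), and 3.66 ± 0.88 higher in untreated mutants (12.6-fold, adjusted p = 0.00835).

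Gpnmb is a transmembrane glycoprotein of macrophages and other cells with many lysosomes. It was 1.49, 1.32 and 1.47 FPKM in wild type, 28.5, 36.9 and 37.4 in untreated mutants, and 38.8, 38.5 and 30.8 with control virus. The shRNA hearts had 0.640, 0.971 and 0.805 FPKM in replicates 5, 6 and 7 and 52.2 in replicate 8. Replicates 5 to 7 all lay below the lowest wild type heart, and replicate 8 was the highest of the 13 as deposited but, at 30.0 aligned FPKM, just under the lowest mutant without shRNA (30.1 to 53.6). The difference from wild type was 3.92 ± 0.85 in control virus mutants (15.2-fold, adjusted p = 0.0120, limma) and 3.85 ± 0.85 in untreated mutants (14.4-fold, adjusted p = 0.00513).

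Spp1 encodes osteopontin, a secreted ligand of integrins and of Cd44. Its FPKM was 0.916, 0.305 and 0.382 in wild type, 11.2, 3.64 and 10.1 in untreated mutants, 4.63, 9.08 and 8.56 with control virus, and 0.350, 1.33, 0.662 and 18.0 in shRNA replicates 5, 6, 7 and 8. The mutants without shRNA did not overlap wild type, with untreated replicate 10 the lowest of them. Spp1 was 2.43 ± 0.68 higher with control virus (5.39-fold, adjusted p = 0.0335, limma) and 2.50 ± 0.68 higher without virus (5.66-fold, adjusted p = 0.0159). These folds understate the change because the wild type level is under the pseudocount of 1.

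Cd52 encodes a small glycosylphosphatidylinositol-anchored surface protein of leukocytes. It was 4.46, 5.79 and 7.42 FPKM in wild type, 52.1, 30.7 and 31.8 in untreated mutants, and 52.8, 57.3 and 35.8 with control virus. With shRNA it was 3.11, 16.3, 3.95 and 113 FPKM in replicates 5, 6, 7 and 8. Replicate 6 was above every wild type heart and below every mutant without shRNA. The difference was 2.84 ± 0.79 with control virus (7.18-fold, adjusted p = 0.0318, limma) and 2.49 ± 0.79 without virus (5.62-fold, adjusted p = 0.0330).

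Mpeg1 encodes perforin-2, a pore-forming protein of macrophages. It was 4.65, 6.30 and 6.49 FPKM in wild type, 25.0, 24.3 and 22.0 in untreated mutants, 27.1, 45.9 and 27.0 with control virus, and 6.37, 10.8, 6.54 and 60.7 in shRNA replicates 5 to 8. The 2 mutant groups without shRNA lay apart from wild type and, for Mpeg1, also apart from each other. Mpeg1 was 2.30 ± 0.54 higher with control virus (4.92-fold, adjusted p = 0.0157, limma) and 1.87 ± 0.54 higher without virus (3.66-fold, adjusted p = 0.0216).

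**Figure D1:**
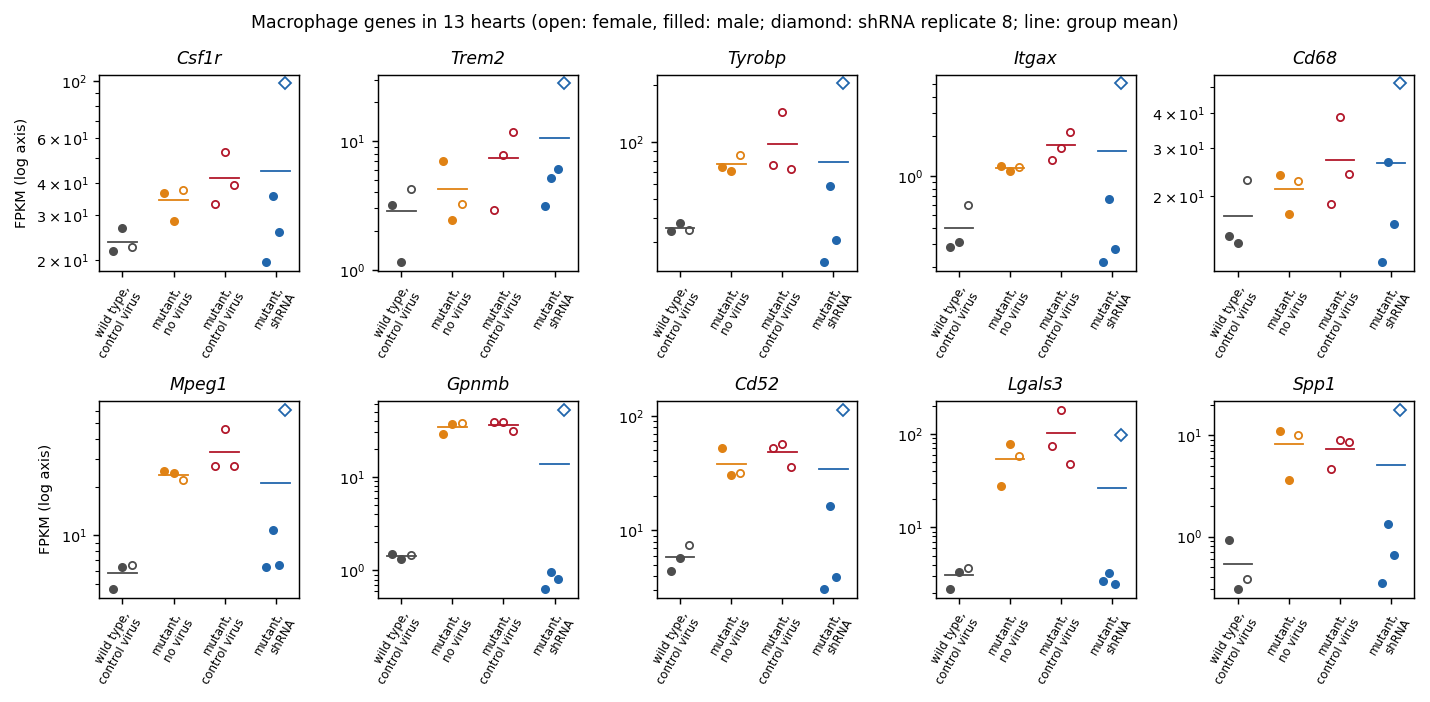
FPKM of each of the 10 genes (log axis, one panel per gene) in the 13 hearts by group; open points are female, filled points male, the diamond is shRNA replicate 8 and the line is the group mean. For Gpnmb the wild type hearts lie at 1.32 to 1.49 and shRNA replicates 5 to 7 at 0.640 to 0.971, whereas the 6 mutants without shRNA lie at 28.5 to 38.8 and replicate 8 at 52.2.

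The receptors and their adaptor moved less. Tyrobp, the signalling adaptor of Trem2 and related receptors, was 34.0, 37.7 and 34.3 FPKM in wild type, 74.2, 70.3 and 86.2 in untreated mutants, and 76.0, 144 and 72.8 with control virus. Its groups did not overlap, but with the spread shared by all 4 groups the 2.58-fold difference with control virus had an adjusted p of 0.107 and the 2.14-fold difference without virus one of 0.147 (limma). After aligning, Tyrobp passed in both (adjusted p = 0.0314 and 0.0331, limma). In shRNA replicates 5 to 8 it was 23.3, 58.8, 30.4 and 204 FPKM.

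Csf1r was 21.7, 26.6 and 22.5 FPKM in wild type, 36.7, 28.5 and 37.7 in untreated mutants, 33.0, 53.0 and 39.4 with control virus, and 19.6, 35.6, 25.6 and 98.2 in shRNA replicates 5 to 8. As deposited, the mutants without shRNA were above all wild type hearts by a narrow margin. The difference was 1.71-fold with control virus (adjusted p = 0.238, limma) and 1.43-fold without (adjusted p = 0.383). After aligning, Csf1r was at most 25.5 FPKM in wild type and at least 37.6 in the mutants without shRNA. It then passed in both comparisons (adjusted p = 0.0421 with control virus and 0.0464 without, limma). Itgax, the integrin alpha X chain CD11c, was the least abundant of the 10. It was 0.288, 0.310 and 0.601 FPKM in wild type, 1.18, 1.10 and 1.17 in untreated mutants, 1.33, 1.63 and 2.16 with control virus, and 0.219, 0.664, 0.275 and 5.06 in shRNA replicates 5 to 8. The groups without shRNA did not overlap wild type (adjusted p = 0.189 with control virus and 0.338 without, limma).

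Trem2 and Cd68 overlapped between mutant and wild type. Trem2 was 3.17, 1.14 and 4.23 FPKM in wild type, 6.95, 2.46 and 3.27 in untreated mutants, 2.92, 7.74 and 11.7 with control virus, and 3.16, 5.15, 6.13 and 28.1 in shRNA replicates 5 to 8. Its spread inside each group was as wide as the distance between groups (adjusted p = 0.260 with control virus and 0.620 without, limma). Cd68, a glycoprotein of macrophage lysosomes, was 14.3, 13.5 and 22.9 FPKM in wild type, 23.9, 17.2 and 22.8 in untreated mutants, 18.7, 38.6 and 24.0 with control virus, and 11.5, 26.7, 15.8 and 51.4 in shRNA replicates 5 to 8. Its difference was 1.54-fold with control virus (adjusted p = 0.365, limma) and 1.27-fold without (adjusted p = 0.586).

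Read against all tested genes, 5 of the 10 passed as higher with control virus than in wild type, where 2.15% of all genes did. The 10 were chosen with earlier results of these data known, so such shares are no independent test of the set. Leaving out shRNA replicate 8, which shrinks the spread shared by the groups, 9 passed against 8.49% of all genes, Cd68 being the exception. After aligning, 7 passed (12.6% of all genes), and 10 with both steps (19.8%). Groups did not overlap for 8 of the 10, all higher, against 13.6% of all genes. For untreated mutants the counts were 5 (1.54% of all genes), 7 without replicate 8 (5.22%), 7 aligned (12.0%), 9 with both (18.9%) and 8 without overlap (8.31%). The calls with all libraries rest on few hearts: with control virus, 1 gene passed with sex as a covariate (Lgals3) and 0 with robust eBayes in limma, where 6 had an unadjusted p under 0.05. Leaving out control virus replicate 1 left 1 gene, and leaving out wild type replicate 2 or 3 left 2. The median difference of the 10 was 1.83 with control virus and 1.48 without virus, where the medians of all tested genes were -0.14 and -0.33.

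Untreated mutants and mutants with control virus were then compared, which asks whether the virus itself moved these genes. The control virus hearts were all female and the untreated ones 2 males and 1 female, so virus and sex are partly mixed. None of the 10 passed (0.0% of all genes by limma, and 0.0539% without shRNA replicate 8, none of them among the 10). At an unadjusted p under 0.05, 0 of the 10 and 572 of all genes passed, and the lowest p of the 10 was 0.291 for Trem2. Mpeg1 and Itgax were higher in all 3 control virus hearts than in all 3 untreated hearts as deposited, against 14.0% of all genes, and after aligning no member was separated. The median difference of the 10 was 0.30, and -0.32 with sex as a covariate. With sex as a covariate and without shRNA replicate 8 it was 0.22.

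The shRNA was compared with both mutant groups. The untreated mutants had no virus, so against them shRNA and virus cannot be told apart. With all 4 shRNA hearts, Gpnmb and Lgals3 passed as lower than with control virus, where 1.66% of all genes did, and the same 2 genes passed as lower than in untreated mutants (1.21%). Lgals3 fell by 3.36 ± 0.83 on the log2 scale against control virus, 10.2-fold (adjusted p = 0.00607, limma), and by 2.58 ± 0.83 against no virus, 5.98-fold (adjusted p = 0.0152). Gpnmb fell by 3.13 ± 0.80, 8.77-fold (adjusted p = 0.00725, limma), and by 3.06 ± 0.80, 8.35-fold (adjusted p = 0.00460). The other 8 did not pass. Mpeg1 differed by -1.23 ± 0.51 (adjusted p = 0.0668), Cd52 by -1.78 ± 0.74 (adjusted p = 0.0677) and Spp1 by -1.37 ± 0.64 (adjusted p = 0.0998, limma) against control virus. In each of the 10 genes the shRNA group overlapped both mutant groups. Replicate 8 was above shRNA replicates 5 to 7 in all 10, as it was in 64.6% of all genes, and without it Csf1r, Trem2 and Cd68 still overlapped both mutant groups.

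Without replicate 8, the comparison with control virus set 3 males against 3 females, so shRNA and sex cannot be told apart in it. In the remaining 3 shRNA hearts, 7 of the 10 genes passed as lower than in untreated mutants (6.22% of all genes). Against control virus 8 passed, all lower (8.94% of all genes). Gpnmb then fell by 4.35 ± 0.21, 20.4-fold (adjusted p = 2.39e-13, limma), Lgals3 by 4.53 ± 0.35, 23.1-fold (adjusted p = 6.41e-10), Cd52 by 2.78 ± 0.36, 6.89-fold (adjusted p = 1.84e-06), Spp1 by 2.23 ± 0.32, 4.70-fold (adjusted p = 6.11e-06), and Mpeg1 by 1.94 ± 0.24, 3.83-fold (adjusted p = 1.42e-06). Tyrobp fell 2.62-fold (adjusted p = 0.000485, limma), Itgax 1.96-fold (adjusted p = 0.00238) and Csf1r 1.55-fold (adjusted p = 0.0423). Trem2 (adjusted p = 0.372) and Cd68 (adjusted p = 0.110, limma) did not pass. Replicate 8 was the highest shRNA heart in all 10 genes, so leaving it out itself lowers the group and its spread. These p-values are therefore no independent test of the fall. Against both mutant groups without shRNA, 7 of the 10 genes did not overlap, where 9.66% of all genes were lower than with control virus and 6.38% lower than without virus in this way. With sex as a covariate, 0 of the 10 passed against control virus with all libraries (limma, 2 at an unadjusted p under 0.05) and 6 without replicate 8. Without replicate 8 the sex term rests on the untreated and wild type hearts, since neither compared group then held both sexes. Aligning alone left 5 lower against control virus (12.2% of all genes) and 6 against no virus (13.1%), and aligning without replicate 8 gave 9 (23.8%) and 9 (24.1%), with Trem2 outside in both. Against untreated mutants Csf1r and Cd68 changed sign with the scale, from 0.10 and 0.09 as deposited to -0.62 and -0.63 aligned.

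**Figure D2:**
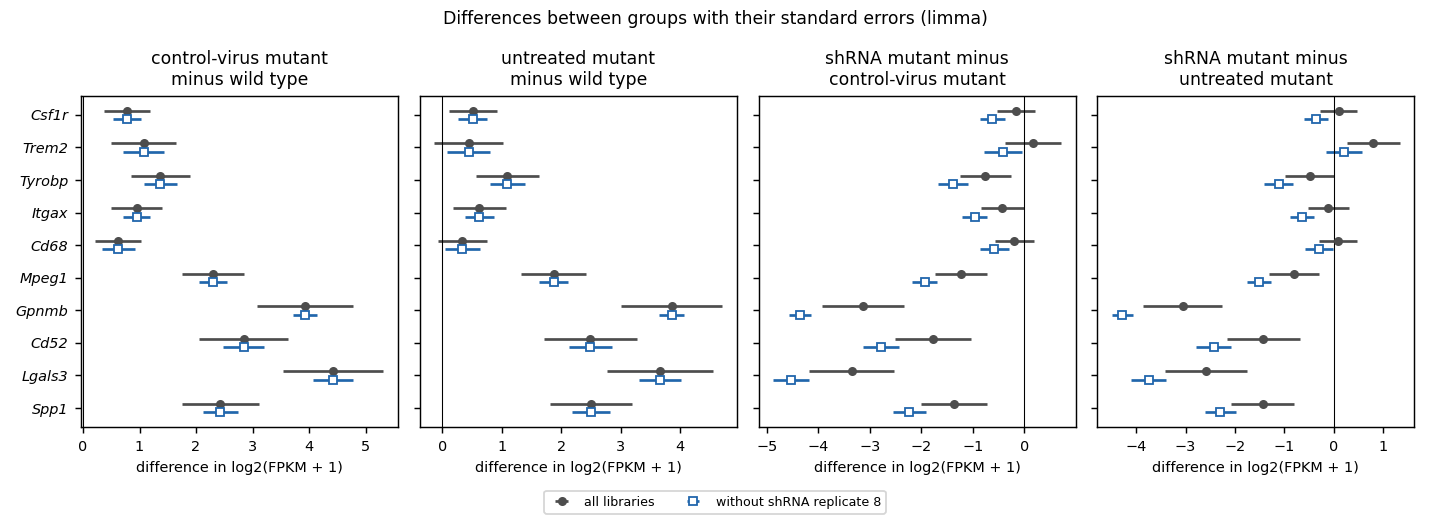
Difference in log2(FPKM + 1) of the 10 genes in 4 comparisons, with its standard error as bars, from limma on all libraries (grey circles) and without shRNA replicate 8 (open blue squares). In the shRNA panels Gpnmb and Lgals3 lie furthest to the left, Trem2 lies to the right of 0 with all libraries (0.17 against control virus and 0.80 against no virus), and leaving out replicate 8 moves all 10 to the left.

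Within the males, the 3 shRNA hearts could be set beside 2 untreated mutants, which differ from them in virus as well as in shRNA. In 7 of the 10 genes each male with shRNA was lower than both untreated males (7.72% of all genes), with Gpnmb at 0.640 to 0.971 against 28.5 and 36.9 FPKM and Lgals3 at 2.46 to 3.28 against 27.8 and 77.7. The only female with shRNA, replicate 8, had higher FPKM than all 3 females with control virus in 9 of the 10 genes, as did 93.2% of all genes. Lgals3 was the exception. Against the 6 mutants without shRNA, replicate 8 was above all of them in 9 genes as deposited (91.8% of all genes) and in 4 after aligning (Csf1r, Trem2, Itgax and Cd52, where 14.6% of all genes were). In replicate 8 the aligned sum of cardiomyocyte markers, given above, was also at the level of the mutants without shRNA, whereas in replicates 5 to 7 it was not. Their part in the result was not tested.

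The shRNA hearts were also compared with wild type. By limma, none of the 10 passed with all libraries (0.108% of all genes) or without replicate 8 (1.68%). At an unadjusted p under 0.05, Trem2 and Mpeg1 passed with all libraries by limma, 0 of the 10 with robust eBayes and 0 without replicate 8. Without replicate 8 the differences lay between -0.43 for Gpnmb and 0.65 for Trem2. The ranges of shRNA replicates 5 to 7 overlapped wild type in 9 genes, and Gpnmb alone was lower in all 3, which 2.3% of all genes were. A p that misses the threshold does not show equal levels: the standard error of these differences was 0.21 to 0.37 log2 units. All 6 mutants without shRNA were above all 3 wild type hearts and shRNA replicates 5 to 7 in 7 of the 10 genes as deposited (4.18% of all genes) and in 8 after aligning (14.8%). After aligning, replicate 8 was above shRNA replicates 5 to 7 in all 10 (37.5% of all genes).

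Whether the 10 genes moved with the general macrophage content was described by setting each against 12 pan leukocyte and macrophage markers that hold none of them (Ptprc, Emr1, Itgam, Aif1, Lyz2, Laptm5, Cd14, Fcgr1, Fcgr3, Ctss, Cx3cr1 and Cd53). The mean log2(FPKM + 1) of the 12 was 3.17 to 3.37 in wild type, 4.23 to 5.29 in the 6 mutants without shRNA, 3.05 to 3.72 in shRNA replicates 5 to 7 and 5.84 in replicate 8. Of the 12, 3 passed as higher in control virus mutants than in wild type (Ctss, Lyz2 and Cd14), where 2.15% of all genes did. Without shRNA replicate 8 all 12 passed, against 8.49% of all genes.

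Tyrobp kept a nearly fixed distance from these markers. It lay 1.89 ± 0.10 log2 units above their mean in wild type (SD, n = 3), 1.87 ± 0.21 in untreated mutants (n = 3), 1.80 ± 0.09 with control virus (n = 3) and 1.86 ± 0.26 with shRNA (n = 4, replicate 8 included). Gpnmb went from 2.02 units under the markers in wild type (-2.13 to -1.85) to 0.01 to 1.02 above them in the mutants without shRNA, and lay at -2.74 to -2.27 in shRNA replicates 5 to 7 and at -0.11 in replicate 8. Lgals3 went from -1.48 to -1.13 in wild type to 0.26 to 2.21 in the mutants, -1.63 to -1.18 in replicates 5 to 7 and 0.76 in replicate 8. Both therefore differed between the groups by more than the markers did.

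Cd52, Mpeg1 and Spp1 shared this direction with smaller steps. Spp1 lay at -2.95 to -2.23 in wild type and -2.01 to -0.93 in the mutants without shRNA. Cd52 moved from -0.72 to -0.30 in wild type to 0.57 to 1.29 in the mutants without shRNA, and Mpeg1 from -0.67 to -0.47 to 0.11 to 0.43. On this scale Csf1r, Cd68, Itgax and Trem2 had lower means in the mutants without shRNA than in wild type. Csf1r lay 1.18 to 1.45 above the markers in wild type, 0.46 to 0.87 in the mutants without shRNA, 1.32 to 1.61 in shRNA replicates 5 to 7 and 0.79 in replicate 8. Cd68 lay 0.52 to 1.20 above them in wild type, -0.17 to 0.17 in the mutants, 0.60 to 1.07 in replicates 5 to 7 and -0.13 in replicate 8. Itgax lay at -2.95 to -2.70 in wild type, -3.89 to -2.84 in the mutants without shRNA, -2.99 to -2.76 in replicates 5 to 7 and -3.24 in replicate 8. Trem2 lay at -2.24 to -0.99 in wild type, -2.49 to -0.84 in the mutants, -1.10 to -0.29 in replicates 5 to 7 and -0.98 in replicate 8. The wild type and mutant ranges overlapped for Itgax and Trem2 and not for Csf1r and Cd68. For Itgax, Spp1 and Gpnmb the pseudocount compresses this measure, since their levels are near 1 FPKM or below in wild type. Trem2 was also low, at 1.14 FPKM in wild type replicate 3, and so was the marker Ptprc, at 2.75 to 3.46 FPKM in wild type. Itgax rose in mean FPKM, from 0.399 in wild type to 1.43 in the mutants without shRNA. Its lower relative mean therefore does not show a smaller rise than that of the markers. These are descriptions over libraries, with no test.

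**Figure D3:**
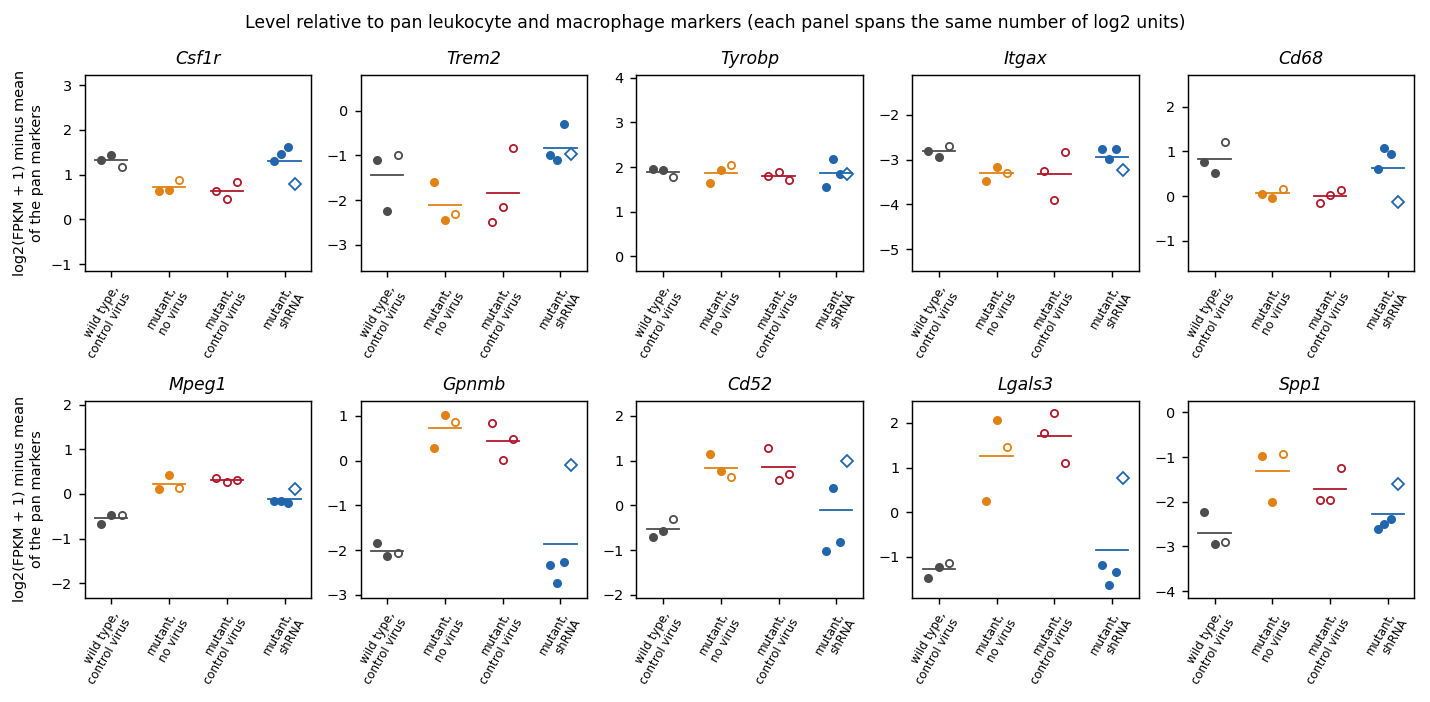
Level of each gene minus the mean of 12 pan leukocyte and macrophage markers, in log2(FPKM + 1) units, per library and group; every panel spans the same number of units, open points are female, the diamond is shRNA replicate 8 and lines are group means. Tyrobp stays at 1.56 to 2.18 in all 13 hearts, Gpnmb and Lgals3 rise in the mutants without shRNA, and Csf1r and Cd68 are lower there.

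The order of the levels changed accordingly. By mean FPKM in wild type it was Tyrobp, Csf1r, Cd68, Cd52, Mpeg1, Lgals3, Trem2, Gpnmb, Spp1 and Itgax, and Cd52 and Mpeg1 did not differ beyond their spread, nor did Lgals3 and Trem2. With control virus the mean of Lgals3 (101 ± 70.1 FPKM, SD, n = 3) was first, within its spread of Tyrobp (97.6 ± 40.3, n = 3), and Gpnmb (36.0 ± 4.52, n = 3) was above Cd68 (27.1 ± 10.3, n = 3). The order in shRNA replicates 5 to 7 began again with Tyrobp, Csf1r and Cd68.

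Related genes were counted by lists of the pathway, for control virus mutants against wild type and for all 4 shRNA hearts against control virus. The median of all genes was 0.47 higher with shRNA as deposited, where 33.4% of all genes passed as higher and, after aligning, 11.9%. In mutants 7.35% of all genes passed as lower as deposited and 11.7% aligned, and 2.15% and 12.6% passed as higher. Lower with shRNA were 1.66% of all genes as deposited and 12.2% aligned. These are the shares to set beside each list that follows. Counts after aligning are therefore given beside those as deposited. Of 15 tested Tyrobp partners and signalling genes, none passed in either comparison (medians 0.77 and -0.23; 6 had an unadjusted p under 0.05 as higher in mutants and 1 as lower with shRNA, limma), and after aligning 8 passed as higher in mutants and 6 as lower with shRNA. Of 9 leukocyte integrins and their ligands none passed either (medians 1.00 and -0.54; 8 and 0 had an unadjusted p under 0.05, limma), and 8 and 7 passed after aligning.

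Of 10 osteopontin receptors, Cd44, which binds osteopontin and hyaluronan, rose 4.06-fold in the mutants (21.4 ± 9.67 against 4.21 ± 0.197 FPKM, SD, n = 3 each, adjusted p = 0.0115, limma) and fell 2.98-fold with shRNA (adjusted p = 0.00770). The integrin chain Itgb6 passed the opposite way in both, 1.87-fold lower in mutants (adjusted p = 0.0310, limma) and 2.02-fold higher with shRNA (adjusted p = 0.00396, and 0.0827 after aligning). After aligning, 6 of the 10 receptors passed as higher in mutants (12.6% of all genes) and 1 as lower, and 6 as lower with shRNA (12.2%). Of 8 galectins and partners of galectin 3, only Lgals4 passed, 4.18-fold lower in mutants (adjusted p = 0.00570, limma) and 4.16-fold higher with shRNA (adjusted p = 0.000807). Lgals4 is an epithelial galectin in other tissues. After aligning, 4 of the 8 passed as higher and 1 as lower in mutants.

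Of 25 genes of phagocytosis, lysosome and lipid handling, the cathepsins Ctsk (3.00-fold, adjusted p = 0.0235) and Ctss (4.78-fold, adjusted p = 0.0270, limma) passed as higher in mutants, and Lpl, lipoprotein lipase, passed as 2.78-fold lower (adjusted p = 0.00912). With shRNA 5 genes of the list passed, all higher as deposited: Lpl, Cd36, Abca1, Fabp4 and Fabp5, which handle fatty acids or cholesterol in muscle and endothelium too. This share, 5 of 25, is under the 33.4% of all genes that passed as higher in this comparison. After aligning, 14 passed as higher and 3 as lower in mutants, and 4 as higher and 12 as lower with shRNA. Of 14 growth factors and transcription factors, Mitf alone passed, 2.33-fold lower in mutants (adjusted p = 0.0102, limma) and 2.82-fold higher with shRNA (adjusted p = 0.000688), and after aligning 6 passed as higher in mutants.

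Markers of other cells moved in the same hearts. Of 10 fibroblast markers 5 passed as higher in control virus mutants (2.15% of all genes). The collagen Col3a1 led them (409 ± 100 against 62.0 ± 11.9 FPKM, SD, n = 3 each, 6.48-fold, adjusted p = 0.00453, limma). Col1a1 (4.91-fold), Postn (9.19-fold) and Col1a2 (3.41-fold) were next by p. With shRNA, 3 of the 10 passed as lower (1.66% of all genes). After aligning, 8 were higher in mutants (12.6%) and 8 lower with shRNA (12.2%). The summed level of this list was 2169 to 2664 aligned FPKM in wild type, 4704 to 5625 in the mutants without shRNA, 2390 to 2623 in shRNA replicates 5 to 7 and 4343 in replicate 8. Of 10 cardiomyocyte markers 5 passed as lower in the mutants as deposited and 2 after aligning (7.35% and 11.7% of all genes), and of 10 endothelial markers 3 and 4. With shRNA 8 of each list passed as higher as deposited (33.4% of all genes), and 3 cardiomyocyte and 5 endothelial markers after aligning (11.9%).

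Of 12 resident-type macrophage markers Cd163, a scavenger receptor for hemoglobin, passed as 2.04-fold lower in mutants (adjusted p = 0.0398, limma), and Cd163 and Timd4 passed as higher with shRNA, 2 of 12 where 33.4% of all genes did. After aligning, 3 of the list passed as higher and 2 as lower in mutants, and 2 as higher and 4 as lower with shRNA. As deposited, 3 were higher and 2 lower in mutants at an unadjusted p under 0.05 (limma). The summed level of the list moved opposite to Cd163. It was 406 to 444 aligned FPKM in wild type, 707 to 1148 in the mutants without shRNA, 359 to 508 in shRNA replicates 5 to 7 and 998 in replicate 8. Of 7 tested monocyte markers, Ccr2, the receptor that draws monocytes into tissue, was 5.08-fold higher (12.0 ± 5.30 against 1.43 ± 0.278 FPKM, SD, n = 3 each, adjusted p = 0.0393, limma). Ccr2 alone of the 7 passed, and 3 were higher and 0 lower at an unadjusted p under 0.05 (limma). The summed level of the monocyte list did not separate the groups as Ccr2 did. It was 352 to 395 aligned FPKM in wild type, 339 to 439 in the mutants without shRNA, 448 to 507 in shRNA replicates 5 to 7 and 411 in replicate 8. Of 3 tested neutrophil markers S100a8 passed (3.47-fold, adjusted p = 0.0299, limma). It was near the floor, with overlapping groups: 0, 0 and 1.34 FPKM in wild type and 6.33, 6.10 and 0.873 with control virus. Of 5 tested dendritic and 5 tested lymphocyte markers none did in mutants, with 2 of each at an unadjusted p under 0.05 (limma). With shRNA the monocyte list had Nr4a1 higher (4.05-fold, adjusted p = 0.0263, limma) and the dendritic list Zbtb46 (1.64-fold, adjusted p = 0.0399), and neither passed after aligning (adjusted p = 0.192 and 0.360). The T cell marker Cd3e was at most 1.57 FPKM outside replicate 8, and the B cell marker Cd79a was at most 0.873 in any heart. Other cells, dendritic cells and fibroblasts among them, can also express several of the 10 genes, and the part of each cell type in the result was not tested.

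The genes most like each member in log2(FPKM + 1) over the 13 libraries were a mixture. For Tyrobp they were Lyz2, Emr1 and Pld4 (Pearson r 0.99, 0.99 and 0.98), for Mpeg1 they were Ctss, Fyb and Eef1a1 (each 0.98), and for Csf1r they were Marcksl1, Inpp5d and Arrb2 (0.99, 0.98 and 0.98). For Gpnmb they were Six3, Prrx2 and Map1b (each 0.99), for Lgals3 Nt5e, Mybl1 and Zdhhc2 (0.98, 0.98 and 0.97), and for Cd52 Serpinf1, Fzd2 and Col15a1 (0.98, 0.98 and 0.97). Spp1 was closest to Lcp2, Six3os1 and Six3 (each 0.97), Itgax to Ccl22, 4931428F04Rik and B4galnt1 (0.98, 0.97 and 0.97), Cd68 to Slc11a1, Pik3cd and Btk (each 0.95), and Trem2 to Cklf, Kcnab2 and Rgag4 (0.91, 0.91 and 0.90). The libraries share a split into high and low hearts and differ in overall level. Among the 10 themselves r ran from 0.41 (Trem2 with Lgals3) to 0.97 (Gpnmb with Lgals3) as deposited, and from 0.49 (Trem2 with Lgals3) to 0.98 (Mpeg1 with Lgals3) after aligning.

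In the small RNA of 11 of the hearts, 6 microRNA hairpins of myeloid or injury biology were read as FPKM with no test. The hairpin mmu-mir-21, a microRNA raised in many fibrotic tissues, was 103629 and 57743 FPKM in wild type, 328295 and 502085 in untreated mutants (replicates 9 and 11), 317272, 564857 and 475794 with control virus, and 90822, 43732, 83317 and 346575 in shRNA replicates 5, 6, 7 and 8. The mutants without shRNA and replicate 8 were all above wild type and replicates 5 to 7, the division that Gpnmb and Lgals3 showed in polyA RNA of the same hearts. The hematopoietic mmu-mir-142 was 16957300 and 12679700 FPKM in wild type, 22801100 and 25349500 in untreated mutants, and 26967800, 40476600 and 28839400 with control virus. It was 15332500 to 22578900 FPKM with shRNA, where replicate 8 at 21424200 did not stand apart. The myeloid mmu-mir-223 was 1742 and 3028 FPKM in wild type, 2609 and 3171 in untreated mutants, and 1470, 1124, 1618 and 5346 in shRNA replicates 5, 6, 7 and 8, where replicate 8 was the highest. With control virus it was 8050 and 8786 FPKM in replicates 2 and 3 and listed at 0 in replicate 1. The hairpin mmu-mir-155 ran from 547953 to 1766140 FPKM with overlapping groups, and mmu-mir-146a and mmu-mir-146b were listed at 0 in all but 1 library each.

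**Figure D4:**
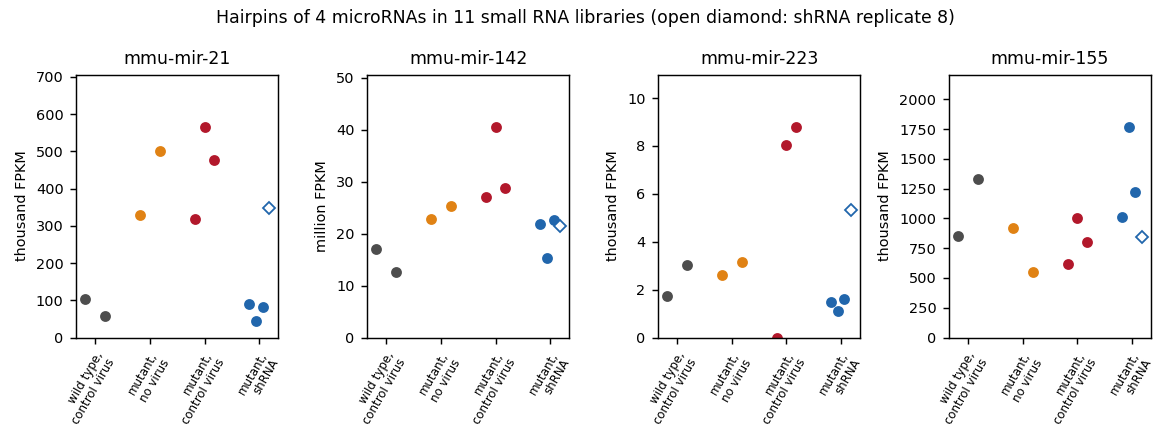
FPKM (linear axes from 0, in units given on each axis) of 4 microRNA hairpins in the 11 small RNA libraries by group, with shRNA replicate 8 as an open diamond. For mmu-mir-21 replicate 8 lies at 346575, among the mutants without shRNA at 317272 to 564857, while the other shRNA hearts lie at 43732 to 90822.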

How the data were processed

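PolyA RNA of 13 mouse hearts and small RNA of 11 of them had been sequenced. The deposited values are FPKM, made by the authors with FastQC 0.11.2, STAR 2.40, Cufflinks 2.2.1 and Cuffdiff on mouse build mm9, per the submitters' processing notes. The labels and notes do not give what each tool was used for or how libraries were scaled. Without read numbers the depth of a library is unknown and no counting error can be given.

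Groups were taken from the sample names and treatment labels. Of 23998 genes, the 12980 whose mean FPKM in the 13 polyA libraries reached 1 were fitted as log2(FPKM + 1) in one linear model over the 4 groups with limma 3.58.1 in R 4.3.3 (eBayes with a trend, two-sided), adjusted by Benjamini-Hochberg within a comparison, and called at 0.05. The script was tested on simulated data. Aligned values divide each library by its median ratio to the mean library. Sex was read from Ddx3y (male above 5 FPKM). The members and lists were chosen with earlier results of these data known. Genes named from a list are up to 4 that passed with the smallest p in control virus mutants against wild type (or with shRNA against control virus, where fewer passed), Fabp5 was named after its values were seen, and genes most like a member are the 3 with the highest Pearson r. All 11 small RNA libraries and their 6 hairpins are described without a test. The alternatives appear in the closing section.

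Replicate numbers pair no hearts: only numbers 2 and 3 occur in both the wild type and the control virus groups, and same-numbered hearts did not deviate together (correlations -0.20 and -0.11 across genes).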

Additional observations from a re-analysis of the deposited data

Results flagged for a closer look

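In the group of 4 shRNA hearts, replicate 8 was set apart from the other 3 by a gap larger than Dixon's critical share of the group's range in 7 of the 10 genes as deposited. Its FPKM was 28.1 for Trem2, 5.06 for Itgax, 60.7 for Mpeg1, 52.2 for Gpnmb, 113 for Cd52, 96.3 for Lgals3 and 18.0 for Spp1. The gap was 0.62 to 0.80 of the range for Csf1r, Tyrobp and Cd68. After aligning, 8 genes exceeded the value, Csf1r joining them. Chance flags about 1 in 20 groups of this size, and the 10 genes share the same 4 hearts. The share of all tested genes over this value was not counted. Replicate 8 was above replicates 5 to 7 in 64.6% of all genes as deposited and 37.5% aligned. The gap is therefore not shown to be particular to these 10 genes.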

How the results depend on the processing

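With control virus against wild type, 5 of the 10 genes passed with all libraries as deposited. The count was 1 with no filter on low values, 0 with robust eBayes (limma, 6 at an unadjusted p under 0.05), 1 with sex as a covariate, 8 with the compared groups alone, 10 aligned without shRNA replicate 8 and 8 aligned with sex as a covariate and without that replicate, an alternative chosen after seeing the data. Leaving out 1 library gave 1 to 9. For untreated mutants against wild type (5 genes), the count was 2 with no filter, 1 with robust eBayes, 9 aligned without replicate 8 and 9 with sex added to that, and leaving out 1 library gave 2 to 7.

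For shRNA against control virus (2 genes), the count was 4 with a mean of at least 5 FPKM, 5 aligned, 5 with quantile normalization, 0 with sex as a covariate (limma, 2 at an unadjusted p under 0.05), 6 with sex as a covariate without replicate 8, 9 aligned without it, 8 with sex added to that, and 2 to 8 leaving out 1 library. For shRNA against untreated mutants (2 genes), it was 1 with no filter, 1 with robust eBayes, 6 aligned, 6 with quantile normalization, 6 with sex as a covariate without replicate 8, 9 aligned without it, 9 with sex added, and 1 to 7 leaving out 1 library. The highest value of each range came from leaving out shRNA replicate 8. No passing gene changed direction. Against untreated mutants, Csf1r and Cd68 (0.10 and 0.09, neither passing) passed as lower when aligned without replicate 8 (-0.95 and -0.87) and with sex added (-0.92 and -0.73).

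With the replicate block on numbers 2 and 3, which uses 4 hearts that share a number only, 7 of the 10 genes passed with control virus against wild type. The other comparisons share fewer than 2 numbers, so no block was fitted there.

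A smaller pseudocount of 0.1 left 5, 5 and 2 genes in the first 3 comparisons and 3 in the fourth. The remaining comparisons, control virus against no virus and shRNA against wild type, had 0 genes under each alternative run. Depth is unknown, so no counting error is given for values near 0 FPKM.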
